A study of Mus musculus with 4 samples.

Results

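Among the 1516 E2A ChIP-Seq peaks called in iNKT cells of L-DKO mice, 466 overlapped none of the 17532 peaks called in DP cells of L-DKO mice, which is 30.7%. These 466 regions are described here. They were chosen by position, as iNKT peaks that share no base with a DP peak on the mm9 assembly. Because the choice rests on which regions the peak caller reported in each cell type, their lack of a DP peak is the rule and not a result. The score deposited with each peak, the p-value of MACS as a negative log10 multiplied by 10, was used to separate 72 regions with a score of 100 or more (15.5%) from 394 with a lower score. The lowest score kept in either list was 50, a p-value of 1e-05. Scores grow with sequencing depth, and the lists carry no read numbers, so the depth of the libraries is unknown. Scores were compared only within the iNKT list, and DP scores printed beside them are descriptions that give no relative signal.

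E2A was precipitated from thymocytes of L-DKO mice, whose genotype is Id2 f/f and Id3 f/f with LckCre+, in which Cre driven by the Lck promoter removes Id2 and Id3 in T-lineage cells. Both cell types carry this deletion, so no cells with intact Id2 and Id3 enter the comparison. DP cells were sorted as CD1dTet- CD4+ CD8+ and iNKT cells as CD1dTet+ TCRβ+ from mice aged 3 to 5 weeks, with material of 3 to 4 mice pooled. There was 1 E2A library for each of the 2 cell types, each with an input library that is not analysed here. The spread between mice or libraries is therefore unknown, no difference between cell types was tested, and every interval given is a 95% Wilson interval that covers counting error only. Peak positions say nothing of marker expression, so the identity of the sorted cells could not be checked from them.

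E2A, encoded by Tcf3, is a basic helix-loop-helix transcription factor that binds E-boxes as a dimer. Id2 and Id3 lack the DNA-binding region and hold E proteins in dimers that cannot bind DNA. E2A acts at the DP stage, from which iNKT cells arise after recognition of CD1d, and the E-box core for which it is best known is CAGGTG, which reads as its reverse complement on the other strand.

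The regions fell into kinds that differ in sequence, and stretches of each are shown because the results below group the regions by these sequences. All sequences are the plus strand of the NCBIM37 assembly, which is mm9, and none touches an annotated exon. In the first set, from regions with a CAGGTG in otherwise plain sequence, the core nearest to the middle of the region is in capitals (CAGGTG, or CACCTG where it lies on the minus strand). They come from introns of Hmbox1 (chr14:65491301-65491380) and Nfib (chr4:82010994-82011073), and from the promoter of Ifng (chr10:117877841-117877920).
Hmbox1: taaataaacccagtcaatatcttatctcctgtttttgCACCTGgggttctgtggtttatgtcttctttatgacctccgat
Nfib: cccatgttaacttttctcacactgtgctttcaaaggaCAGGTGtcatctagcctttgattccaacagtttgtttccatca
Ifng: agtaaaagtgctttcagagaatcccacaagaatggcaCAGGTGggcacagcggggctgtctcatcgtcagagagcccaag

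The second set shows regions in which the E-box core itself is repeated in tandem, again with each core in capitals. They lie upstream of Fam65c (chr2:167849024-167849263), in an intron of Itgam (chr7:135262738-135262977) and downstream of the start of Pla2g2e (chr4:138439675-138439914), and each stretch is the 240 bases of its region with the most cores.
Fam65c array: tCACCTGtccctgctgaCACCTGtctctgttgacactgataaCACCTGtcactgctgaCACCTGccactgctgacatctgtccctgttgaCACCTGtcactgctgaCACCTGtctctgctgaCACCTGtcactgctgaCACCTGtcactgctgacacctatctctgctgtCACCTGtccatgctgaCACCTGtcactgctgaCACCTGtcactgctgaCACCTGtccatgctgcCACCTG
Itgam array: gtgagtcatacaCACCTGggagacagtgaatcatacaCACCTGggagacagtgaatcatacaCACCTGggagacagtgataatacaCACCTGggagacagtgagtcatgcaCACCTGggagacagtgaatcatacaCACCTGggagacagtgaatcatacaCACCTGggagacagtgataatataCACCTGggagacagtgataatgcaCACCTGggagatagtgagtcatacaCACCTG
Pla2g2e array: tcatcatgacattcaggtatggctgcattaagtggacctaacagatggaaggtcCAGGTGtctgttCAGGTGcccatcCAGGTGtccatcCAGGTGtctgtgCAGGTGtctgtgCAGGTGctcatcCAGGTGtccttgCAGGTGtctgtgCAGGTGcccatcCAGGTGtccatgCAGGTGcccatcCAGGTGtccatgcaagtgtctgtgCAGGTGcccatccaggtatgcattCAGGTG

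The third set shows tandem repeats without that core. Their shared word is ACCCACA, read as TGTGGGT on the other strand, and each copy is in capitals. The stretches are 160 bases each, from introns of Sec14l5 (chr16:5166503-5166662), Sos2 (chr12:70709445-70709604) and Jak1 (chr4:100907676-100907835) and from the upstream side of Zmat1 (chrX:131588759-131588918).
Sec14l5 repeat: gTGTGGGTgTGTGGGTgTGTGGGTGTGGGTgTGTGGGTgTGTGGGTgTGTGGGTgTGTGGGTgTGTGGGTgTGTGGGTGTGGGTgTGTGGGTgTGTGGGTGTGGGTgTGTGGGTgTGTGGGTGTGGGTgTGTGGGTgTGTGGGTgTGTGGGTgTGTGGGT
Sos2 repeat: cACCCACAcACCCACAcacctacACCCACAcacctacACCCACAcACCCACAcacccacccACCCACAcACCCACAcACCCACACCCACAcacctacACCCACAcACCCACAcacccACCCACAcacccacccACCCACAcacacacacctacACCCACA
Jak1 repeat: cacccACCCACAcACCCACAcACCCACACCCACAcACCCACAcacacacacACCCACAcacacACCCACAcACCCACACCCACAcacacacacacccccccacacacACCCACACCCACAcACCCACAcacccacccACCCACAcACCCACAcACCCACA
Zmat1 side repeat: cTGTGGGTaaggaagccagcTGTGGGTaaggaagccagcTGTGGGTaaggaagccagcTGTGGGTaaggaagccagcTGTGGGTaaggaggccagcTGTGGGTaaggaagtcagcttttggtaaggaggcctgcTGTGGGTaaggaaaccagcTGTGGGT

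The last pair is a stretch at the start of chromosome 9 and the stretch that follows it, at chr9:3018338-3018571 and chr9:3018572-3018805. Both are 234 bases long, 220 of the 234 bases are the same in both (94.0%), and the 14 that differ are in capitals. Neither holds CAGGTG.
chromosome 9 unit 1: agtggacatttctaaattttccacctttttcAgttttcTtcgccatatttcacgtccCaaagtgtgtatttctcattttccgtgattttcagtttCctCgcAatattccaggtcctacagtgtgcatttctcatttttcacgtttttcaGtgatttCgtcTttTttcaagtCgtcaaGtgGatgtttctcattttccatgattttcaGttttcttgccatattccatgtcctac
chromosome 9 unit 2: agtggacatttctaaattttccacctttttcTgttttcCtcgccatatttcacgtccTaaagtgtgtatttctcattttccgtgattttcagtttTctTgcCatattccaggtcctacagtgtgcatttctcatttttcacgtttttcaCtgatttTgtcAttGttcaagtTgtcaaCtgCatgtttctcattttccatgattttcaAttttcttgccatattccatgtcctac

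Most of the 466 regions had scores near the calling limit. The median score was 59.2 with quartiles of 53.6 and 79.96, and the highest was 1085. The 72 regions with a score of 100 or more had a median score of 143 and a median width of 1079 bp, and the 394 with lower scores had a median score of 56.9 and a median width of 703.5 bp. At the limit itself stood the region in Spry2 with a score of 100, followed by one in an intron of Ptpro at 100.48, one in Slc26a9 at 101.86, one in Ntrk3 at 101.87 and one near Gcfc1 at 101.90. Just below it were regions in Rapgef5 (99.28), in Kif26b (98.09), near Fasl (97.98), near Rad23b (97.80) and near Ccdc11 (97.76). Fasl and Rad23b were not given to their regions by the gene window used below. For these and other such regions, the gene with the nearest start site is named, at any distance. The lack of a DP peak was most frequent among iNKT peaks of low score. Of 249 iNKT peaks with a score from 50 to under 55, 154 had no DP peak (61.8%, 55.7 to 67.7), whereas 31 of 316 peaks with a score of 150 or more had none (9.81%, 7.00 to 13.6).

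**Figure D1:**
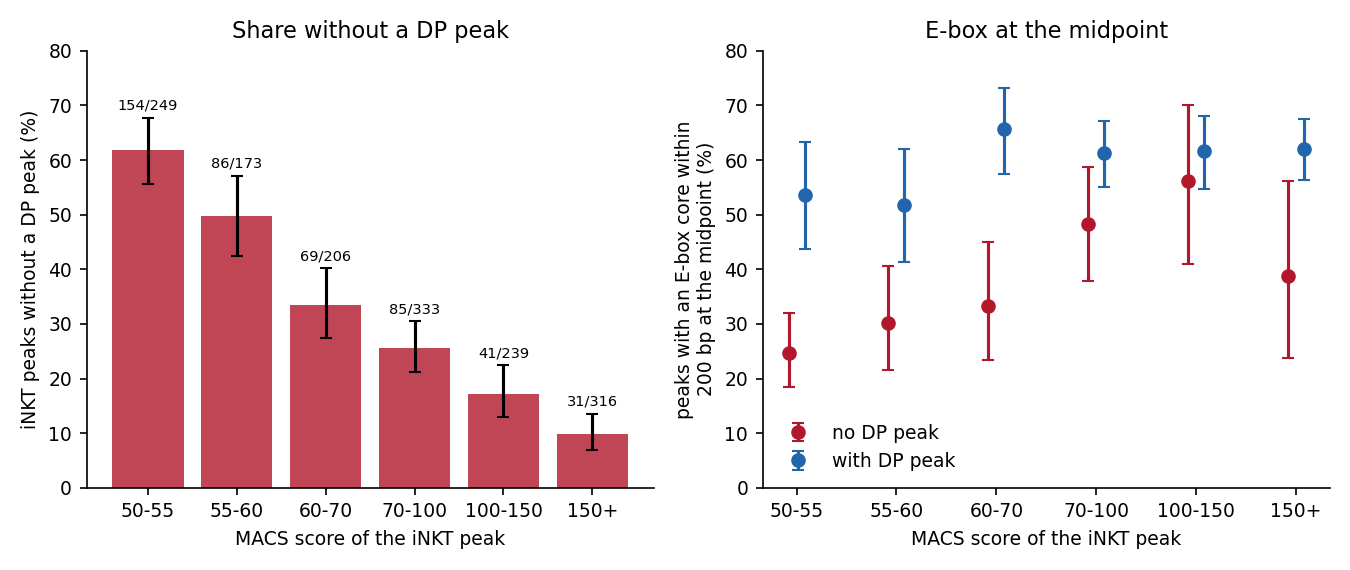
Share of iNKT peaks without a DP peak (left, bars, percent) and share of peaks with the E-box core CAGGTG within 200 bp at the midpoint (right, points, percent), by the MACS score of the iNKT peak. Error bars are 95% Wilson intervals for counting error. The left share falls from 61.8% to 9.81% across the bins, and on the right the regions without a DP peak rise from 24.7% to 56.1% and stand at 38.7% in the highest bin.

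The distance from the regions to DP peaks is given as a description, since the regions were chosen by the positions of DP peaks. The median distance to the nearest DP peak, edge to edge, was 93.4 kb, with quartiles of 21.9 and 293 kb and a range from 30 bp to 3923 kb. The distance was 82.9 kb in the median for regions with a score of 100 or more and 96.1 kb for the rest. For the 1050 iNKT peaks that did overlap a DP peak, the nearest other DP peak was 5.67 kb away in the median at scores of 100 or more and 8.26 kb at lower scores. A DP peak lay within 1 kb of 13 of the 466 regions, within 10 kb of 65 and within 100 kb of 244 (52.4%, 47.8 to 56.9). Among iNKT peaks with a DP peak, another DP peak lay within 100 kb of 966 of 1050 (92.0%, 90.2 to 93.5). Overlap with a DP peak picks stretches where such peaks are dense, so this difference is not independent of the rule. How much of it the rule sets was not tested. Among regions without a DP peak, 42 of 72 with a score of 100 or more (58.3%, 46.8 to 69.0) and 202 of 394 below it (51.3%, 46.3 to 56.2) had a DP peak within 100 kb, with overlapping intervals.

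**Figure D2:**
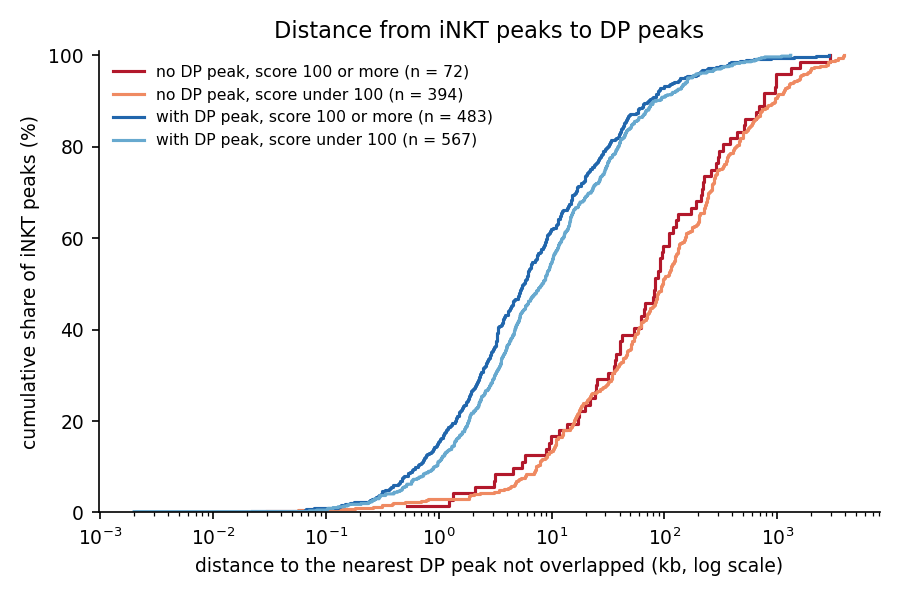
Cumulative share of iNKT peaks (percent) by the distance to the nearest DP peak that they do not overlap (kb, log scale), for iNKT peaks with and without a DP peak in both score classes. Both curves of regions without a DP peak lie to the right, with medians of 82.9 and 96.1 kb against 5.67 and 8.26 kb.

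A few regions were without a DP peak by a small margin. The 5 nearest were 30 bp from a DP peak in or near Gtf2a1l (score 65.59), 57 bp at Rb1, the retinoblastoma gene (52.89), 75 bp at Stard7 (91.34), 181 bp near Myl12b (66.12) and 262 bp at the start of chromosome 9 (73.98). On the other side of the rule, the iNKT peaks with the shortest overlap shared 183 bp with a DP peak at Ltbp2, 197 bp near 1700030C10Rik, 352 bp at Zfp365, 393 bp near Ighv1-73 and 399 bp at F2rl2. The 5 farthest from any DP peak lay near Cacna2d1 on chromosome 5 (3923 kb), near Robo1 on chromosome 16 (3838 and 3472 kb), near Epha7 on chromosome 4 (3461 kb) and near the start of chromosome 4 (3218 kb). Their scores were between 56.11 and 83.06. The regions named by Robo1, Epha7 and Myl12b were given no gene, and those are only the genes with the nearest start site.

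The E-box core was concentrated at the middle of the regions. Within the 200 bp at the midpoint, CAGGTG on either strand was held by 35 of the 72 regions with a score of 100 or more (48.6%, 37.4 to 59.9) and by 128 of the 394 with a lower score (32.5%, 28.1 to 37.3). In flanks of the same length 2 kb to either side, the shares were 11.1% (7.0 to 17.3) and 11.5% (9.5 to 14.0), and 11.9% of all 200-bp tiles of the assembly held it. The share at the midpoint was therefore 4.38 times that in the flanks at the higher scores and 2.81 times at the lower ones. Of the iNKT peaks that scored under 100 and overlapped a DP peak, 59.6% (55.5 to 63.6) held the core, a range above that of the regions without a DP peak in this score class. At scores of 100 or more the core was held by 61.9% (57.5 to 66.1) of iNKT peaks with a DP peak, and here the intervals overlap.

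Within the regions the share was higher at higher scores up to 150. It was 24.7% (18.5 to 32.0) in the 154 regions with a score under 55, 48.2% (37.9 to 58.7) in the 85 from 70 to under 100 and 56.1% (41.0 to 70.1) in the 41 from 100 to under 150. In the 31 regions with a score of 150 or more it was 38.7% (23.7 to 56.2), an interval that overlaps those of the 3 bins just given. Among iNKT peaks with a DP peak the share was 53.7% in the lowest bin and 62.1% in the highest. In bins of 100 bp along the sequence, 31.9% of the regions with a score of 100 or more held CAGGTG on either side of the midpoint, and 6.94% did so 2 kb away.

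**Figure D3:**
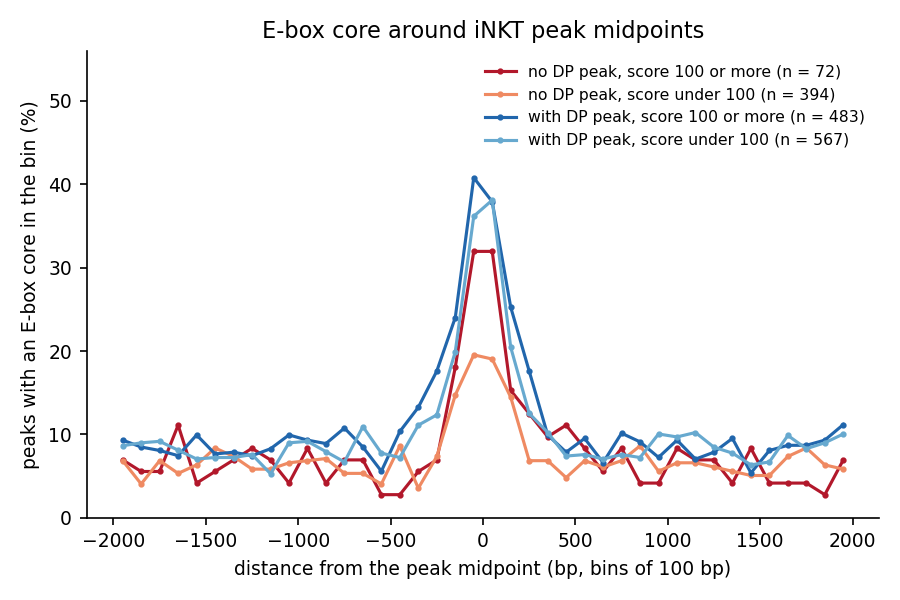
Share of iNKT peaks with the E-box core CAGGTG in each bin of 100 bp (percent) by the distance of the bin from the peak midpoint (bp), for iNKT peaks with and without a DP peak in both score classes. All 4 lines rise at the midpoint, to 31.9% and 19.5% without a DP peak and to 40.8% and 38.1% with one.

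A second E-box core, CAGCTG, was held by 27.8% (18.8 to 39.0) of the regions with a score of 100 or more and by 16.8% (13.4 to 20.8) of the rest, against 7.64% and 7.61% in the flanks and 7.23% of the tiles. The cores of other factors that act in T cells were less concentrated at the midpoint. ACCACA, the Runx core, was held by 22.3% of all 466 regions (18.8 to 26.3) and by 15.8% of their flanks (13.6 to 18.3). TCAAAG, bound by Tcf7 and Lef1, was held by 15.9% of regions and 13.9% of flanks, and TTATCT, a form of the Gata core, by 16.7% and 14.1%, with overlapping intervals for both. The tiles of the assembly held them at 13.8%, 15.5% and 13.3%.

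Of the 20 regions with the highest scores, 6 lay in sequence that occurs more than once in the assembly, all 6 in 1 block at the start of chromosome 9 that is described further on, 5 in sequence that occurs once but holds a tandem repeat, and 9 in neither. Repeated sequence was measured as the median number of times that the words of 31 bases of a region occur in the assembly, and a tandem stretch as 100 bases of which at least 80% equal the base up to 60 positions before. Of the 72 regions with a score of 100 or more, 11 were repeated (15.3%, 8.75 to 25.3), 12 were single-copy with a tandem stretch and 49 were neither. Of the 394 with lower scores, 21 were repeated (5.33%, 3.51 to 8.01), 31 held a tandem stretch and 342 were neither. Single-copy sequence with a tandem stretch was also found in iNKT peaks with a DP peak, in 79 of 483 (16.4%, 13.3 to 19.9) against 16.7% (9.80 to 26.9) of the regions at scores of 100 or more, and 64 of 567 (11.3%, 8.94 to 14.2) against 7.87% (5.60 to 11.0) below, with overlapping intervals in both classes. Of the 11 repeated regions with higher scores, 7 belonged to the block on chromosome 9, and an interval treats such neighbours as separate. Without the block 4 of 65 were repeated (6.15%, 2.42 to 14.8) at the higher scores and 18 of 391 (4.60%, 2.93 to 7.16) at the lower ones. Repeated sequence made up 12 of the 483 iNKT peaks with a DP peak at scores of 100 or more (2.48%, 1.43 to 4.29) and 5 of 567 at lower scores (0.882%, 0.377 to 2.05). Without the 3 that lie in the block these were 2.08% (1.13 to 3.78) and 0.707% (0.275 to 1.80), so that the intervals with and without a DP peak overlap at the higher scores and not at the lower ones. Of flanks as long as the region, 2 kb away, 19.4% (13.8 to 26.7) were repeated for the higher-scoring regions and 8.25% (6.52 to 10.4) for the rest, and without the block 10.8% (6.52 to 17.3) and 7.54% (5.89 to 9.61). For single-copy regions alone the shares were 7.38% (3.93 to 13.4) and 5.09% (3.73 to 6.91), against 2.23% (1.46 to 3.38) and 3.11% (2.25 to 4.30) for single-copy iNKT peaks with a DP peak in the same score classes. What part repeats have in the lack of a DP peak was not tested.

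The region with the highest score, 1085 and rank 16 among all iNKT peaks, lay in Sec14l5 on chromosome 16, from 5165642 to 5167236. Sec14l5 belongs to a family of lipid-transfer proteins. No DP peak was given to this gene, and the nearest, of score 155, was 88.4 kb away. The middle of this region is the tandem repeat shown for Sec14l5. The whole region holds ACCCACA 67 times with overlapping copies counted, and the stretch shown holds it 21 times. In all, 37.6% of the region lay in tandem stretches with a main period of 8 bases. CAGGTG occurred once in it and not in the 200 bp at its midpoint.

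This word, which was chosen after the sequence of that region had been seen, recurred in other regions without a DP peak. It occurred 5 or more times in 10 of the 466 regions (2.15%, 1.17 to 3.90) and in 3 of the 1050 iNKT peaks with a DP peak (0.286%, 0.0972 to 0.837). In the DP list 23 of 17532 peaks held it so often (0.131%), and so did 2 of 932 flanks of the regions (0.215%) and 0.0268% of 1-kb tiles of the assembly. The 9 highest numbers in the whole iNKT list all belonged to regions without a DP peak. Apart from Sec14l5 these included Sh3rf1 with 31 copies (score 55.64), Zdhhc9 with 31 (53.58), Katnal1 with 26 (75.98), the upstream side of Zmat1 with 23 (102.43), Sos2 with 21 (228.11), Jak1 with 17 (137.35) and Heatr7a with 10 (60.52). Of the regions named, all but the one near Zmat1 lay inside the gene, although the start nearest to the region in Sos2 was that of Mettl21d. Sos2 encodes an exchange factor that activates Ras and Jak1 a kinase that acts below cytokine receptors. The tenth region with the word was near Tacc1 with 5 copies and a score of 122.93.

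**Figure D4:**
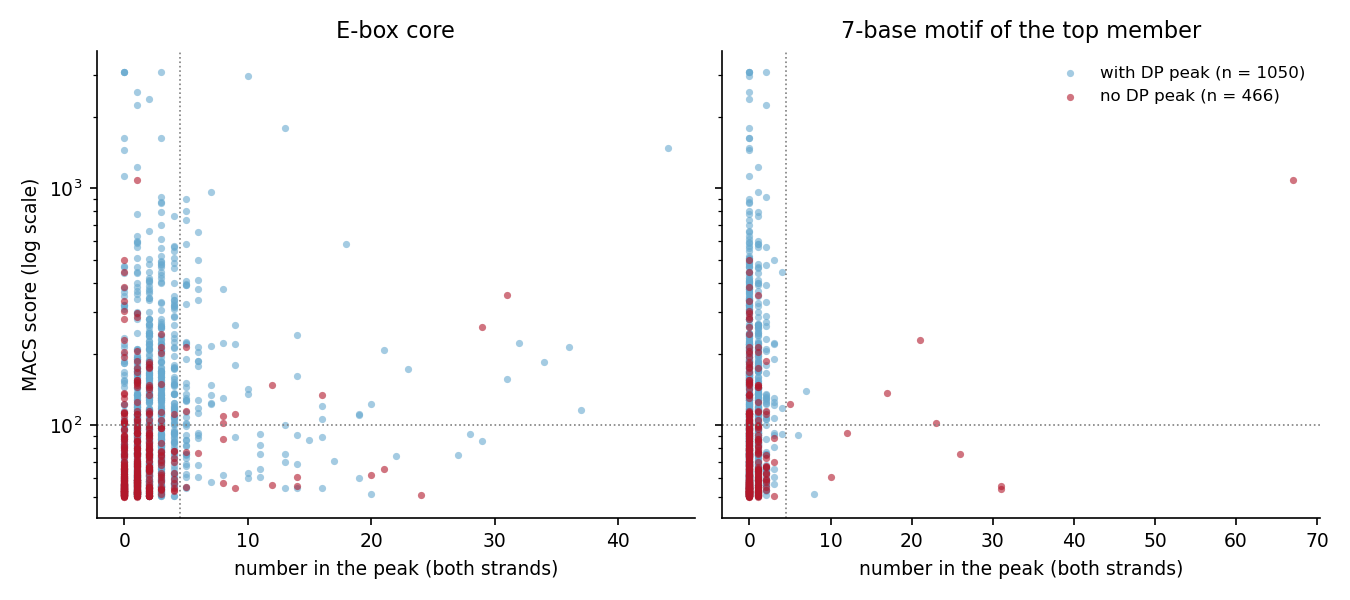
MACS score (log scale) of each iNKT peak by the number of E-box cores CAGGTG (left) and of the word ACCCACA (right) in the peak, both strands counted, for peaks with and without a DP peak. Dotted lines mark a score of 100 and the limit of 5 copies. On the right, 10 peaks without a DP peak and 3 with one lie at or past 5 copies, up to 67 at a score of 1085, and on the left 21 and 117 do.

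Many copies of the E-box core were found in both kinds of iNKT peak. CAGGTG occurred 5 or more times in 21 of the 466 regions (4.51%, 2.97 to 6.79) and in 117 of the 1050 iNKT peaks with a DP peak (11.1%, 9.38 to 13.2), against 0.536% of the flanks of the regions and 0.382% of 1-kb tiles. In the DP list 1055 of 17532 peaks held so many (6.02%, 5.68 to 6.38), a share inside the interval of the regions. These are counts over whole peaks, and the median width was 744.5 bp for the regions and 1128 bp for iNKT peaks with a DP peak, a difference that was not allowed for. Among regions with a score of 100 or more, 9 of 72 held 5 cores or more (12.5%, 6.72 to 22.1). The upper decile of the number of cores was 5 in this class and also 5 in iNKT peaks with a DP peak at these scores. The highest numbers in these 2 sets were 31 and 44. Of the 21 regions 13 had a tandem stretch and 8 had none, and of the 9 with higher scores 6 had one and 3 had none. All 21 were single-copy in the assembly, and 10 held 10 cores or more. The highest number was upstream of Fam65c, on chromosome 2 from 167848765 to 167850072, with 31 cores and a score of 356. From one core to the next the most frequent distance was 16 bases, in 19 of 30 steps. Next, and given to the neighbouring gene Itgax by its nearer start, was an intron of Itgam, which encodes the CD11b integrin chain, on chromosome 7 from 135262209 to 135263440, with 29 cores, most often 25 bases apart, and a score of 259. A DP peak with a score of 50.35 lay 3.06 kb from the Itgam region. The region near Pla2g2e, a secreted phospholipase, held 16 cores (score 134), that in Rassf6 held 12 (147) and that in Mapk13, a p38 kinase, held 8 (109). Regions in Tdrd9 (24 cores), near Ooep (21) and in Scn8a (20) had scores of 50.75, 65.69 and 61.60, close to the calling limit.

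The largest group of neighbouring regions was at the start of chromosome 9. It held 10 regions from 3003360 to 3038759, a span of 35.4 kb, and 7 of them had scores of 100 or more. In order along the chromosome the scores were 73.98, 75.78, 445.72, 383.77, 136.20, 279.66, 333.77, 96.58, 499.67 and 205.24. Their words occurred in the assembly between 4 and 39 times in the median, with 10 as the middle value, and the most frequent repeat period among them was 234 bases, the one shown above, in 7 of the 10. A unit of this length is known from the major satellite of the mouse, which lies at the centromeres, and mouse chromosomes have their centromere at the start. Together the 10 regions held CAGGTG once. The span was not free of DP peaks, because 3 DP peaks with scores from 50.61 to 236.96 lay between the regions, each overlapped by an iNKT peak, and those 3 iNKT peaks had scores from 81.37 to 1452.4. Membership therefore changed from one stretch to the next within the same repeat. The genes given to the 10 regions were predicted genes of this block such as Gm10715 and Gm10720.

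A second group, of 4 regions, lay on chromosome 8 from 19880438 to 19974395, with copy numbers from 3 to 5 and scores from 53.64 to 81.09. All other regions stood alone (430) or in pairs (11) when regions within 50 kb were joined. The regions with the 2 highest copy numbers stood alone. A region of 223 bp on chromosome 7 at 101995990 had a score of 112 and a median copy number of 2724. The region of Stard7 already named, 75 bp from a DP peak, had a copy number of 1455. The next, 39, was in the block on chromosome 9, and a region on the X chromosome at 92148878 had a copy number of 23 and a score of 153.

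**Figure D5:**
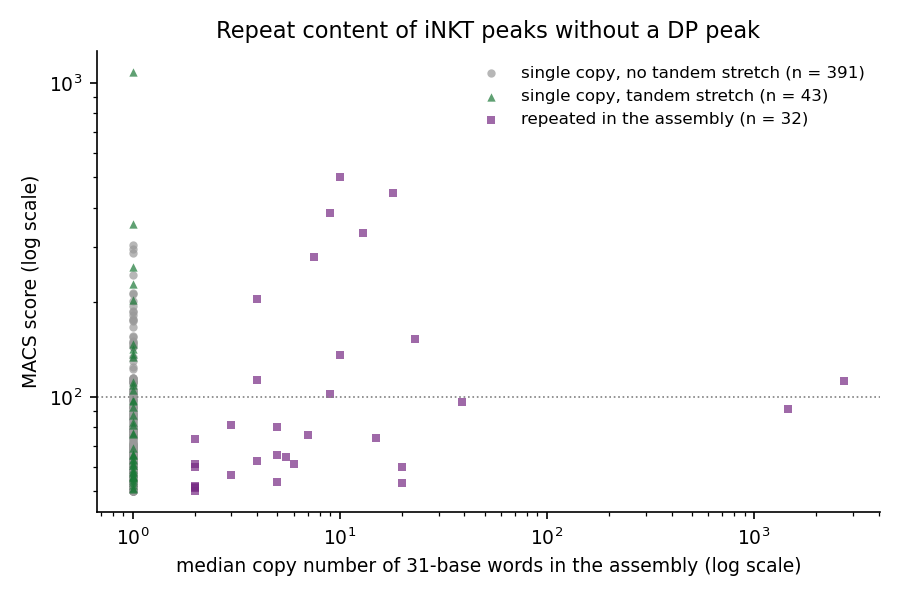
MACS score (log scale) of the 466 iNKT peaks without a DP peak by the median copy number of their 31-base words in the assembly (log scale). Of the 466, 32 are repeated (squares), 43 are single-copy with a tandem stretch (triangles, the highest at a score of 1085) and 391 are neither (circles), and the dotted line marks a score of 100.

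The 49 regions with a score of 100 or more that were single-copy and free of tandem stretches held the E-box core at the midpoint in 53.1% of cases (39.4 to 66.3), against 12.2% in their flanks (7.15 to 20.2). The corresponding share for iNKT peaks with a DP peak was 64.03% (59.2 to 68.6). Of these 49 regions, 24 had no DP peak within 100 kb, 4 had one within 10 kb, and the shortest distance was 0.527 kb. The highest was on chromosome 12 from 3109388 to 3110465, which scored 304 and held no CAGGTG in the whole region. It lies near the start of that chromosome, and 5 regions outside chromosome 9 started below 3.5 Mb. The region in Zfyve16, which encodes an endosomal protein, had a score of 286 and was 9794 bp from a DP peak. Others among the 20 highest scores were near Fam13a (244), Siah3 (214), Gm7854 (213) and Tpm1 (187) and in Nrxn3 (201) and Gm10801 (195), in addition to a region with a short tandem stretch near 3110070M22Rik (204).

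A few further regions of this kind were named after their values had been seen and stand for no group of genes. The region upstream of Pmaip1, which encodes the pro-apoptotic protein Noxa, had a score of 182 and no DP peak within 646 kb. The region in Nfib, a transcription factor gene, had a score of 156 and no DP peak within 949 kb. The regions in Hmbox1, a homeobox gene (186), in Aff3 (145), in Slc7a1, a cationic amino acid transporter (112), and near Adar, an RNA-editing enzyme (107), were between 21.9 and 65.5 kb from a DP peak.

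A gene was given to 305 of the 466 regions (65.5%, 61.0 to 69.6). This was the protein-coding gene that starts nearest to the midpoint, provided that the midpoint lay in the gene, up to 30 kb before it or up to 5 kb after it. Introns held 187 of the 466 midpoints (40.1%), 239 were intergenic (51.3%) and 17 lay within 1 kb of a start site (3.65%, 2.29 to 5.76). The share at start sites was 8.86% (7.29 to 10.7) for iNKT peaks with a DP peak. It was 9.72% for the regions with a score of 100 or more, but 5 of these 7 belonged to the repeat block on chromosome 9, and 2.54% for the rest. Of the 305 genes given, counted per region, 153 had a DP peak elsewhere in the same window (50.2%, 44.6 to 55.7), and the count was 26 of 50 for regions with a score of 100 or more.

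Over all 22380 protein-coding genes, 377 had at least 1 of the regions in their window, which is 1.68%, and 73 had one with a score of 100 or more, which is 0.326%. Of the 377 genes, 186 had a DP peak and 191 had none, while 8771 of all genes (39.2%) had a DP peak and 1280 (5.72%) had some iNKT peak. Lists of genes with known parts in innate-like T cells were set beside this background of 1.68%. None of 33 transcription factor genes of innate-like T cells had a region without a DP peak, although 29 had a DP peak and 8 had some iNKT peak. None of 20 genes for NK receptors and cytotoxic granules had one, where 9 had a DP peak. That count depends on the genes listed, because of all 28 genes with a symbol starting with Klr, counted after the values had been seen, 3 had a region, namely Klri1 (score 69.84) and, with the same region, Klra9 and Klra10 (52.28). None of 19 chemokine receptor and homing genes had one, where 16 had a DP peak, and Cx3cr1, which has a region nearby (63.41), was not on that list. The count was 1 of 23 for cytokines and their receptors (Ifng), 1 of 25 for T cell receptor signalling and SLAM genes (Zap70), 1 of 13 for genes of DP thymocytes (Themis) and 5 of 181 for the innate-like signature that the study compiled (2.76%). The copy of the signature used here held 195 symbols, fewer than the whole signature, and 14 of these were not found in the annotation. With lists this short, 1 gene more or less moves a share past the background, and the 5 of 181 is close to it.

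The region at Ifng, the interferon gamma gene, lay from 117877337 to 117878248 on chromosome 10. Its midpoint was 0.311 kb upstream of the start site, its score was 64.65 and its rank 987 of 1516. It held 1 CAGGTG, shown above, and 1 CAGCTG. The 1 DP peak given to Ifng had a score of 233 and was 20.4 kb away. The region at Zap70, a kinase of the T cell receptor pathway, was in an intron with a score of 54.68, and the gene had 5 DP peaks with scores from 74.62 to 576, the nearest 4.11 kb away. The region in an intron of Themis, which acts in positive selection, had a score of 75.20, and the gene had 3 DP peaks with scores up to 1702. None of these 3 regions reached a score of 100.

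Among the genes of the study's signature, the regions at Lass4, a ceramide synthase gene, and Spry2, which encodes an inhibitor of receptor tyrosine kinase signalling, reached that score, with 150 and 100. The region in Spry2 was 1.72 kb past the start site and held 2 CAGGTG, and no DP peak was given to the gene. The region in Lass4 held 3 CAGGTG, and 1 DP peak with a score of 361 lay in the same window. The regions at Adamtsl3 (90.22), Zfp536 (59.30) and Uck2 (53.73) had lower scores, and each of these genes had DP peaks, 1, 3 and 7 in number. All 8 regions given to genes of the lists were single-copy.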

How the data were processed

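E2A ChIP-Seq peaks were taken as deposited, 1 list for DP and 1 for iNKT cells. According to the methods, the authors used Bowtie 1.1.2 for alignment to mm9, discarded reads that matched several positions equally well and used MACS 1.4.2 to call peaks against input. The deposited unit is the authors' score, a p-value on a negative log10 scale multiplied by 10. Reads and inputs were not used here.

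Lists were compared by position with at least 1 bp of overlap. Genes and exons came from the GENCODE annotation of NCBIM37. Both strands of the central 200 bp, and of flanks 2 kb to either side, were searched for motifs. The copy number was the median number of times that a peak's words of 31 bases occur in the assembly. The functions passed 11 of 11 checks on made-up data with known answers. Members and gene lists were chosen with earlier results of these data known. The 20 highest scores, the 5 on either side of each limit, clusters and genes of the lists were named by rule. Tandem stretches and the word ACCCACA were added after the sequences had been seen. Python 3.11.15, numpy 2.4.6, pandas 2.3.3, pysam 0.24.0 and samtools 1.23.1 were used. Results for a few individual regions are not reported here.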

Additional observations from a re-analysis of the deposited data

How the results depend on the processing

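With 1 library per cell type and no read numbers, neither replicate error nor depth could be given, and no value here was tested. The 466 regions became 661 when an overlap of at least 50% of both peaks was asked for, 453 when a DP peak within 1 kb counted as shared and 543 when DP peaks scoring under 100 were left out. Of 26 alternatives for 10 results, 15 moved a value beyond its counting interval. The number of regions had no such interval. Its alternatives just given are therefore not among the 15, although they change the membership. The share with a score of 100 or more, 15.5%, was 33.7% at a limit of 70 and 3.86% at 200. The median distance to a DP peak, 93.4 kb, was 140 kb to DP peaks with a score of 100 or more. The share with CAGGTG, 35.0%, was 59.7% in the whole peak and 22.3% in 100 bp, and its fold over flanks, 3.05, was 1.46 in the whole peak. The share in repeated sequence, 6.87%, was 4.51% with words of 50 bases and 4.82% without the cluster at the start of chromosome 9. At scores of 100 or more it was 15.3% and 6.15% without that cluster, and the share of repeated flanks, 19.4%, was 10.8% without it and 7.38% for single-copy regions. The share near a gene, 65.5%, was 57.5% with 10 kb upstream and 71.2% with all gene types. The percent of genes with a region, 1.68, was 4.66 with 100 kb on both sides and 0.326 for scores of 100 or more. Of the 26 alternatives 18 were planned, and 8, which leave out the cluster, regions with many cores or with a tandem stretch or, for the flanks, repeated regions, were chosen after seeing the data. No paired analysis was possible because each cell type has 1 library and no test was made.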

Other observations

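The regions without a DP peak were spread over all chromosomes with peaks, but their share of the iNKT peaks differed between them. On the X chromosome 19 of 32 iNKT peaks had no DP peak (59.4%, 42.3 to 74.5), and on chromosome 11 the share was 12.9% (13 regions, 7.68 to 20.8). These intervals do not overlap. The chromosomes were picked out after their values had been seen, and 5 of the 19 regions on the X chromosome were in repeated sequence.

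Regions at some genes known from immune cells were picked out after their values had been seen. A region 37.2 kb past the start of Fasl, the ligand that triggers apoptosis through Fas, lay outside the window used for that gene and scored 97.98, and the nearest DP peak, which scored 85.53, was 9.53 kb away. Regions near the chemokine receptor gene Cx3cr1 (63.41), in the NK receptor gene Klri1 (69.84), in Trat1, which encodes an adaptor of the T cell receptor (79.05), in Itga4, an integrin gene (64.56), and in Il1rap, a subunit of the IL-1 receptor (52.19), had scores under 100. The region in Itga4 had a median copy number of 5.5. No test was made of whether such genes occur among the regions more often than others.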
